A study of Drosophila melanogaster with 2 samples.

Results

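The genes CG9541, kcc, TP53INP, v, if, RhoGAP19D, Task6 and TkR99D each had a strong binding peak of the CG17612-eGFP fusion protein with the core letters of the Su(Hw) motif under its summit. They were 8 of the 18277 genes annotated on the chromosome arms of Drosophila melanogaster. They were chosen by the pooled peak score and by the core itself, so that both are descriptions here and support nothing. Binding came from ChIP-seq, the sequencing of DNA recovered with an antibody, of whole embryos aged 0 to 24 h, of the strain CG17612-GFP. In this strain an insertion gives a CG17612-eGFP fusion. An anti-GFP antibody was used, although the antibody label itself names CG17612, and the DNA was sonicated to 200 to 800 bp. The samples were 2 biological replicates of 1 group from separate biosamples with 1 donor identifier. All animals carried the fusion, no untagged group was present, and the control experiment named in the labels was not analysed here. The driver of the fusion is not given in the labels, and fewer cells with binding cannot be told apart from less binding per cell in whole embryos. Peak lists hold no expression values, so the embryo label could not be checked against marker genes.

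Su(Hw), the suppressor of Hairy-wing protein, is a zinc-finger protein best known for binding the insulator of the gypsy retrotransposon. It works with Cp190 and Mod(mdg4) at insulators, which limit contact between enhancers and promoters, and it also represses genes. It binds many places in the fly genome away from gypsy through a motif with a short invariant core. Such places are commonly found in introns and between genes rather than at promoters.

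The sites below are shown because they are sequences under core peaks of the genes, for if under both of its core peaks. Each is 30 bases of the RefSeq Release 6 genome (the dm6 build), read 5′ to 3′ on the strand that carries the core, with GCATACTTT in capitals. The last entry, from a peak outside the 8 genes, is given for contrast, and its capitals mark the same 9 positions.
CG9541, chr2L:8973104-8973133, minus strand: atatagtgctGCATACTTTtagacactttc
TP53INP, chr3L:4410417-4410446, minus strand: atatattgtaGCATACTTTcaaacatcttt
v, chrX:10921863-10921892, plus strand: ccaacttaagGCATACTTTtaagcacgtaa
v, chrX:10921826-10921855, minus strand: cccgtttcttGCATACTTTtaggcacaatc
if, chrX:16767252-16767281, minus strand: acttttcactGCATACTTTtagacacttat
if, chrX:16757833-16757862, plus strand: aatatgtattGCATACTTTcagacatcttt
RhoGAP19D, chrX:20502983-20503012, plus strand: aaatttagtaGCATACTTTccggaacctga
Task6, chr3R:13673072-13673101, plus strand: atatgtcataGCATACTTTtaagcaccttt
TkR99D, chr3R:29963262-29963291, minus strand: taaaattgtaGCATACTTTtgggctgcgca
CG17896, chrX:493959-493988, plus strand: gtacccaaatGCATACTCTatggttaatca

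With the copies not printed here, peaks of the 8 genes held 11 copies of the 7-letter core GCATACT, all followed by TT. The base before the core varied, with T in 5 copies, A in 5 and G in 1. Counted from 1 at the G of the core, positions 14 and 15 read CA in 9 of the 11 copies. The exceptions were the sites of RhoGAP19D and TkR99D. The core stood on the strand of the gene in 4 copies and on the other strand in 7. The v peak held copies on opposite strands with their centres 34 bp apart.

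The spelling of the core decided which peaks were counted. The spelling chosen for the main count, TGCATACT or TGCATATT on either strand within 50 bp of the summit, was present in 5 of the 15 peaks of these genes, against 87 of all 2042 peaks (4.26%). None of the 5 held TGCATATT. It was absent from the strongest peaks of TP53INP, RhoGAP19D, Task6 and TkR99D, where A precedes the core. The 7-letter GCATACT, another spelling that was tried, was found in 9 of the 15 peaks and in the strongest peak of all 8 genes, against 99 of 2042 peaks (4.85%). In windows of the same size centred 300 bp to either side of each summit its share was 0.857%. Since the genes were selected on the core, nothing is read from their count. GCATACT, which fits the strongest peak of all 8 genes, is called the core from here on. Contrasts between peaks of these genes with and without it therefore rest on a spelling matched to the same peaks.

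The peaks of each gene were those of the conservative pooled list with a summit in the gene body or within 10 kb of it. By this count 6666 of the 18277 genes (36.5%) had a peak, and the 8 genes had 15 in all. Scores are signal values given by the authors on a scale that is not stated. A replicate's value is the highest score among its own ranked peaks that overlap the pooled peak. Neighbouring pooled peaks that overlap the same replicate peak therefore share its score, and counts of ratios include such repeats. The conservative list holds only peaks that passed the authors' limit on irreproducibility between the 2 replicates. Every share and replicate ratio over it is conditional on that limit. The strongest peaks of the 8 genes scored from 263 to 761 and held ranks 11 to 163 of 2042. Just outside the choice, 3 peaks with the core elsewhere scored at or above the weakest of these, the lowest of them 342, and the highest core peak under it scored 248. The ion transport genes kcc and Task6 are described before the receptors, the intracellular proteins, the enzyme and CG9541.

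kcc (FBgn0261794, kazachoc) encodes a potassium-chloride cotransporter that keeps chloride low in neurons. Its only peak, chr2R:23911929-23912171, scored 679 pooled, 473 in replicate 1 and 211 in replicate 2. The score in replicate 1 was thus 2.25 times that in replicate 2. The summit lay 1444 bp downstream of a start site of kcc, in intron 3 (319 bp), which was intronic in all 7 transcripts. The gene is overlapped by the antisense gene asRNA:CR44806, which did not hold the summit.

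Task6 (FBgn0038165) encodes a TWIK-related acid-sensitive potassium channel, of the class that sets resting membrane potential. Its strongest peak, chr3R:13673011-13673181, scored 283 pooled, 210 in replicate 1 and 84.7 in replicate 2, a ratio of 2.48. It lay in the 5′ UTR, 1437 bp downstream of a start site, and was intronic in 2 of the 4 transcripts. The other peaks within 10 kb held no core and lay at promoters of neighbouring genes. The one 29 bp upstream of B52, a gene for an SR splicing protein, scored 98.1 pooled, 64.8 in replicate 1 and 32.3 in replicate 2. The one 248 bp upstream of Lkb1, a gene for a serine-threonine kinase, scored 89.8, 38.3 and 47.3. Replicate 1 was 2.01 times higher at B52 and lower, at 0.81 times, at Lkb1.

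if (FBgn0001250, inflated) encodes the αPS2 integrin subunit, through which muscle and other cells attach to the extracellular matrix. It was the only one of the 8 genes with a second core peak. The stronger, chrX:16767154-16767351 in intron 4 (5241 bp) and 13817 bp from the nearest start site, scored 356 pooled, 265 in replicate 1 and 89.6 in replicate 2. The weaker, chrX:16757694-16758017 in intron 8 (1398 bp), scored 189 pooled, 132 in replicate 1 and 57.7 in replicate 2. Their ratios were 2.95 and 2.29. Both introns were intronic in all 4 transcripts.

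The 2 peaks of if without the core were weaker. The peak 53 bp upstream of a start site of the neighbouring gene goe (gone early) scored 107 pooled, 71.1 in replicate 1 and 27.4 in replicate 2, and was not in the thresholded list of replicate 2. The peak in intron 2 scored 93.0 pooled, 45.1 in replicate 1 and 45.4 in replicate 2, and was not in that of replicate 1. Replicate 1 was 2.60 times higher at goe, close to the ratios of the core peaks, whereas the scores in intron 2 were level.

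TkR99D (FBgn0004622) encodes a G protein-coupled receptor for tachykinin neuropeptides. Its only peak, chr3R:29963255-29963403 in intron 1 (6952 bp), scored 263 pooled, 166 in replicate 1 and 90.8 in replicate 2. It had the lowest pooled score among the strongest peaks and, at 1.83, the lowest ratio of the 9 core peaks. It was also the narrowest of them (149 bp), its core was farthest from the summit (43 bp), and it lacked the CA at positions 14 and 15.

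RhoGAP19D (FBgn0031118) encodes a GTPase-activating protein, known in fly epithelia for restricting Cdc42 activity to the apical side. Its only peak in the conservative list, chrX:20502874-20503036 in intron 2 (17971 bp), scored 313 pooled, 223 in replicate 1 and 89.4 in replicate 2, a ratio of 2.50. The place was intronic in 4 of 5 transcripts. The less strict pooled list added chrX:20510587-20510910, without the core, at 72.8 pooled, 43.4 in replicate 1 and 23.2 in replicate 2. The ratio of the core peak, 2.50, was close to that of the Task6 core peak. The RhoGAP19D core site lacked the CA.

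TP53INP (FBgn0035542, also DOR) encodes the fly relative of the mammalian TP53INP proteins, which act in autophagy and as nuclear cofactors. The core peak, chr3L:4410316-4410546, scored 575 pooled, 429 in replicate 1 and 156 in replicate 2, a ratio of 2.76. A peak without the core in the same intron (intron 1, 10435 bp, intronic in 3 of 8 transcripts), chr3L:4413104-4413427, scored 113 pooled, 50.2 in replicate 1 and 49.6 in replicate 2. Within this intron the core peak was higher in replicate 1 and the other was level, and the weaker was not in the thresholded list of replicate 1.

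v (FBgn0003965, vermilion) encodes tryptophan 2,3-dioxygenase, the enzyme that starts the synthesis of brown ommochrome eye pigments. Its peak, chrX:10921761-10921972, lay outside the gene, 2104 bp upstream of its start site and in the 3′ UTR of the neighbouring gene CG43901. It scored 477 pooled, 324 in replicate 1 and 155 in replicate 2, a ratio of 2.09.

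CG9541 (FBgn0032083), whose function is not described here, had the highest score of the 8 genes. The core peak, chr2L:8972980-8973234, scored 761 pooled, 557 in replicate 1 and 201 in replicate 2, a ratio of 2.77. Its summit was 1882 bp downstream of the start site in intron 2, and the peak covered all 165 bp of that intron in both transcripts. A peak without the core 9671 bp outside the gene, 227 bp upstream of a start site of CG13101, scored 191 pooled, 103 in replicate 1 and 90.3 in replicate 2, a ratio of 1.15.

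**Figure D1:**
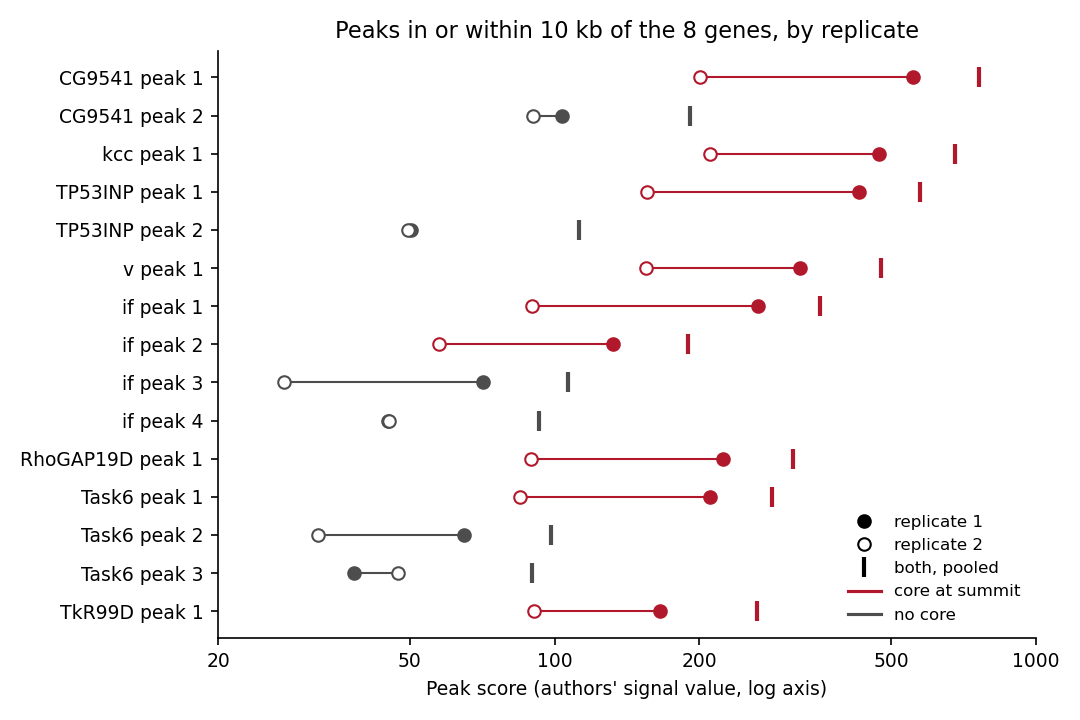
Scores of the 15 peaks in or within 10 kb of the 8 genes, on a log axis in the authors' signal units, for replicate 1 (filled), replicate 2 (open) and both pooled (bar), with peaks numbered by pooled score within a gene. All 9 core peaks (red) were higher in replicate 1, whereas 4 of the 6 others (grey) lay between 0.81 and 1.15 times.

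The core peaks of the 8 genes were stronger in replicate 1 throughout. Replicate 1 scored higher in 9 of 9 core peaks, from 1.83 to 2.95 times with a median of 2.48, a log2 difference of 1.31. Of the 9, 8 were more than 2 times higher in replicate 1, against 108 of 2020 peaks with a score in both replicates (5.35%). The 6 other peaks of the same genes had a median ratio of 1.08 and ranged from 0.81 to 2.60, with 2 above 2 times, so the groups overlapped. With the 8-letter spelling, the medians were 2.29 for the 5 peaks with it and 1.91 for the 10 without it. The replicate scores enter the pooled score by which the genes were chosen, and peaks are not replicates, so no test was made.

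All 9 core peaks were in the thresholded list of each replicate, whereas over all 15 peaks 12 were in that of replicate 1 and 13 in that of replicate 2. Of the core peaks outside the 8 genes 75.6% were in the list of replicate 1 and 54.4% in that of replicate 2, against 53.7% and 56.9% of the outside peaks without the core. The sets differ in pooled score, with medians of 356 for the 9 core peaks, 102 for the 6 others and 117 for the outside core peaks. Since the genes were chosen by score, nothing is read from the presence of all 9 in both lists. In the 9 core peaks the summit called in replicate 1 lay between 22 bp on one side and 36 bp on the other of the pooled summit, and that of replicate 2 within 16 bp. Both replicates thus had these peaks at nearly the same place. Depth is unknown for both libraries, and the median score over all conservative peaks was 53.3 in replicate 1 and 47.1 in replicate 2. The first median is 1.13 times the second. The part of depth in the ratios was not tested.

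Peaks outside the 8 genes, which played no part in their choice, gave the background for the ratio. The 90 core peaks there had a median score of 117, and the 89 with a score in both replicates had a median ratio of 1.71, with 30 (33.7%) above 2 times. The 1937 peaks without the core had a median score of 97.3. The 1916 of them with a score in both replicates had a median ratio of 1.09, with 68 (3.55%) above 2 times. As strong as the strongest peaks of the 8 genes (263 or higher) were 152 peaks without the core. The 151 of these with a score in both replicates had a median ratio of 1.01, with 6 (3.97%) above 2 times. Outside the 8 genes only 3 core peaks were as strong, with ratios from 0.89 to 2.79 and 2 of them above 2 times. The 8-letter spelling of the main count gave a smaller difference. Of the outside peaks scored in both replicates, the 80 with it had a median ratio of 1.38, with 19 (23.8%) above 2 times. The 1925 without it had a median ratio of 1.10, with 79 (4.10%) above 2 times.

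**Figure D2:**
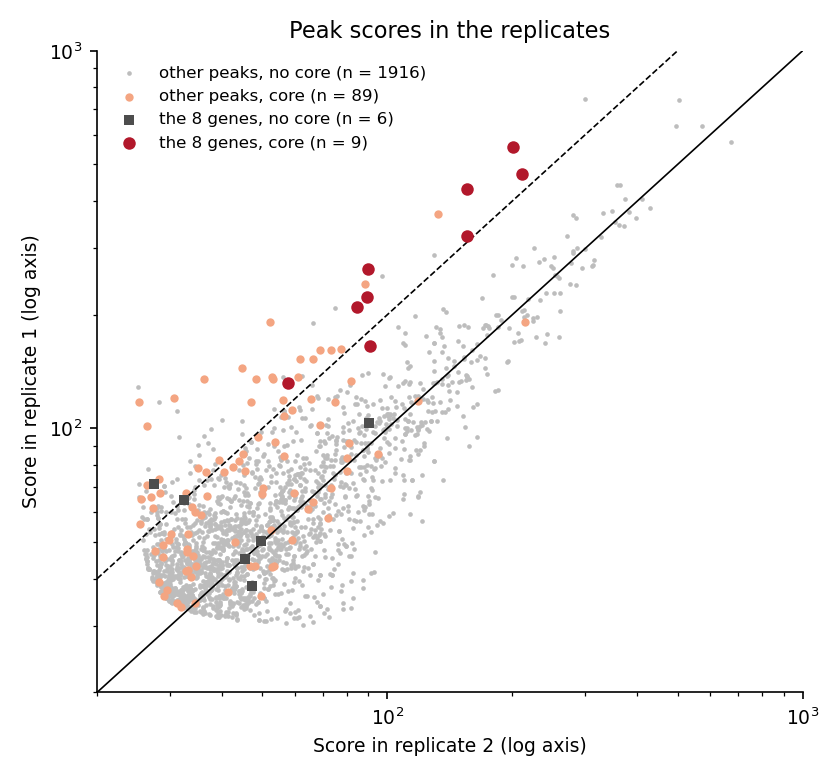
Score of each conservative peak in replicate 1 against replicate 2, both on log axes, with equality (solid line) and a 2-fold higher score in replicate 1 (dashed line). Core peaks of the 8 genes (red) lie at or above the dashed line except that of TkR99D (1.83 times), and other core peaks (orange) are spread from 0.73 to 4.63 times.

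The difference was larger among stronger peaks. For peaks outside the 8 genes scored 200 to 400, the median ratio was 2.28 with the core (n = 10) and 1.01 without it (n = 190). Under a score of 100 the medians were 1.44 (n = 36) and 1.15 (n = 1000). At 400 and above only 2 core peaks lay outside the 8 genes, with a median of 1.57, against 0.99 for 65 others. Conversely, of the 98 peaks outside the 8 genes that were more than 2 times higher in replicate 1, 30 (30.6%) held the core. It was in 59 (3.09%) of the 1907 that were not. Among the 1907 were 20 peaks more than 2 times higher in replicate 2, and 0 of these held it. So few peaks could not show a difference from that share.

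**Figure D3:**
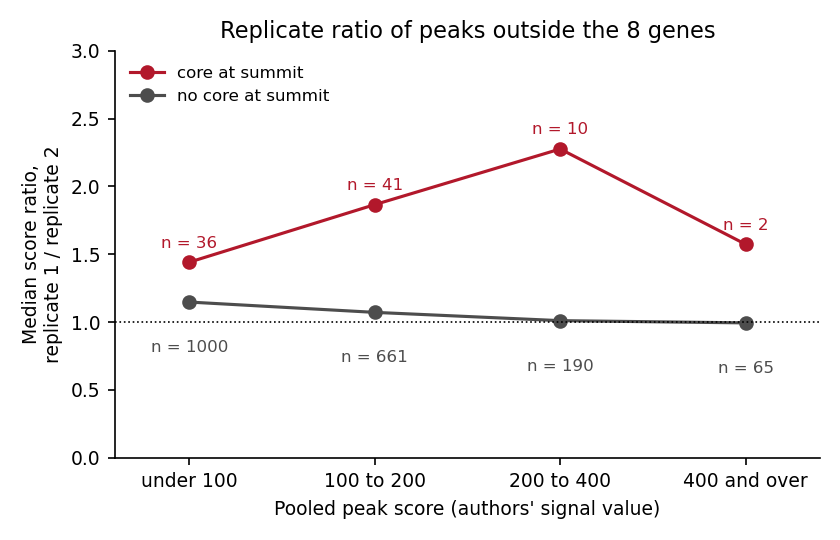
Median ratio of the score in replicate 1 to that in replicate 2 for peaks outside the 8 genes, by band of pooled score, with the number of peaks beside each point and equality dotted. Peaks with the core (red) lie above those without it (grey) in all 4 bands, and the highest band holds only 2 of them.

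None of the 9 core peaks of the 8 genes lay at a promoter, meaning no more than 500 bp from an annotated start site. Of the 9, 7 were in introns, 1 in a 5′ UTR and 1 in a 3′ UTR, against 693 of 2042 peaks (33.9%) in an intron or non-coding exon. The distance from summit to start site ran from 1437 to 13817 bp with a median of 3299. By contrast 4 of the 6 other peaks of these genes were at promoters, each of them that of a neighbour (CG13101, goe, B52 and Lkb1). Outside the 8 genes 20 of 90 core peaks (22.2%) and 972 of 1937 others (50.2%) were at promoters.

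Outside the 8 genes the ratio differed with place among core peaks and little among the others. Core peaks away from promoters had a median ratio of 1.83 (n = 69) and those at promoters 1.18 (n = 20). Without the core the values were 1.08 (n = 949) and 1.11 (n = 967). Place was mixed with the longer word and with score. Promoters held 10 of the 63 outside peaks with GCATACTTT (15.9%) and 10 of the 27 with GCATACT but not GCATACTTT (37.0%). The median score of core peaks was 124 away from promoters and 95.3 at them. The part of place in the ratio of the 8 genes was not tested.

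The letters beyond the core also differed between copies at conservative summits and copies elsewhere. TT followed GCATACT in all 9 sites nearest to the summits of the 8 genes, while the single T at position 8 was found in 78.9% and that at position 9 in 75.6% of the 90 core peaks elsewhere. In the 13178 genome copies with no conservative summit within 50 bp these shares were 48.0% and 37.9%. Such copies are not known to be unbound, as 4411 of all 13294 copies (33.2%) lay under some ranked peak. C at position 14 was present in 8 of 9, 72.2% and 27.6%, and A at position 15 in 8 of 9, 66.7% and 27.9%, in the same order. T at position 18 was also in 8 of 9, with 53.3% and 30.3% in the other sets. The bases compared are the commonest ones of the 9 sites themselves, so the shares in those 9 are high by construction.

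**Figure D4:**
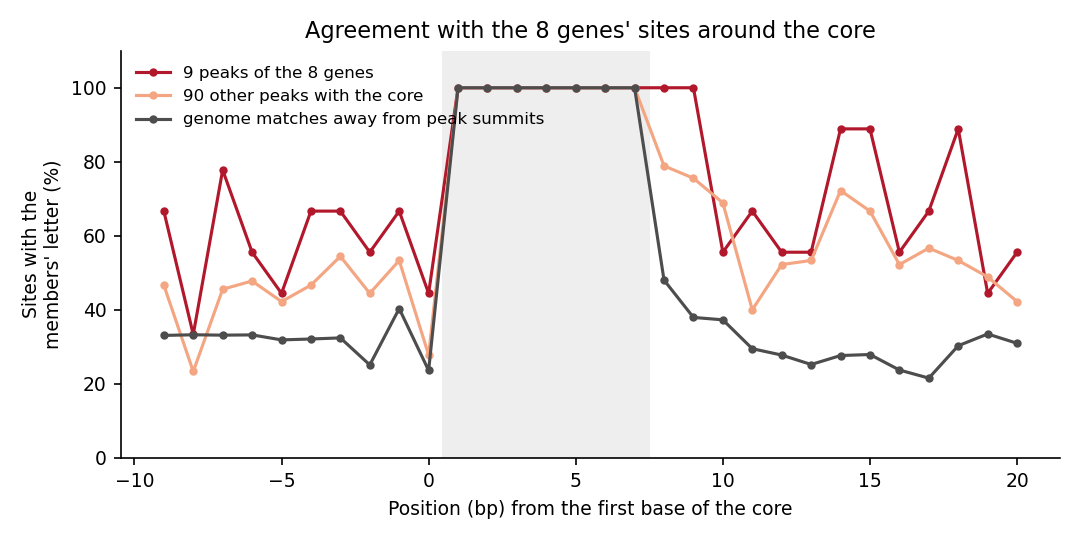
Percent of sites that carry the commonest base of the 8 genes' sites at each position (bp, with 1 the beginning of the shaded 7-letter core). Red marks the 9 sites nearest to the summits in the 8 genes, and orange 90 core peaks elsewhere. Grey marks genome copies with no conservative summit within 50 bp. The red values are high by construction, since each base was taken from the same 9 sites. The orange line is above the grey line at every position from 8 to 20.

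The longer word separated copies at conservative summits from other copies further. Outside the 8 genes GCATACT occurred 13259 times, and 105 copies (0.792%) lay within 50 bp of a conservative summit. With TT after it the share was 2.10% of 3386, and without TT 0.344% of 9873. With TT and with CA at positions 14 and 15 it was 53 of 478 (11.1%, 95% Wilson interval 8.58 to 14.2), and with TT but not CA 18 of 2908 (0.619%, 0.392 to 0.976). These intervals cover counting error only, and copies are not independent.

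The same word went with the replicate ratio. The 42 peaks outside the 8 genes with GCATACTTT and CA had a median ratio of 2.22, and 26 (61.9%) were above 2 times. The 47 peaks with GCATACT but not the longer word had a median of 1.20, with 4 (8.51%) above 2 times. Replicate 1 scored higher in all 42, from 1.26 to 4.63 times, and only 3 of the 42 (7.14%) were at promoters while 25 were in introns and 13 between genes. The longer words were picked after the sites of the 8 genes had been seen.

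A minority of the copies of the core around the 8 genes lay at a summit of the conservative list. Their bodies plus 10 kb held 35 copies of GCATACT, of which 11 were near a conservative summit, and 15 copies of GCATACTTT, of which the same number, 11, were. RhoGAP19D, the longest of the genes at 40740 bp, had 9 copies with 1 at a summit, and TP53INP had 3 with 1 at a summit. Only v had all of its copies of GCATACT under a peak (2 of 2), and if had 2 of 4.

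Of 368 ranked peaks at the 8 genes, most were far weaker than those in the thresholded list, which held 15 of them, against 2042 of 144329 over the arms (1.41%). The highest ranked peak under the threshold scored between 37.5 (v) and 72.8 (RhoGAP19D). Only 2 ranked peaks under the threshold had the core at the summit, at 44.3 near CG9541 and 14.8 near TkR99D. Over the arms 99 of 1441 ranked peaks with the core (6.87%) were in the thresholded list.

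Other known motifs were rare in the core peaks of the 8 genes. GAGAG (GAGA factor), CGATA (BEAF-32), TATCGATA (DREF), GGTCACAC (M1BP), AGGTGGC or AGAGGGC (CTCF) and CAGGTAG (Zelda), searched on both strands, were in 0 of 9. Over all peaks GAGAG was in 9.70%, CGATA in 14.4% and each of the others in 2.15% or less, and 9 peaks are too few to show a difference from such shares. CGATA was in the promoter peaks at goe and B52, and TATCGATA, which contains CGATA, in that at B52. A match or its lack in these windows says nothing of binding by the factor.

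The strongest peaks with the 8-letter spelling outside the 8 genes showed both kinds of ratio. The strongest peak of the whole list, in an intron of CG11050, held TGCATATT and not GCATACT, and scored 1264 pooled, 741 in replicate 1 and 505 in replicate 2 (1.47 times). Ratios above 2 were found for 6 peaks with GCATACTTT. They lay in introns of myd (510 pooled, 369 and 132 in replicates 1 and 2, 2.79 times), hig (248, 2.09 times), kek5 (235, 3.66 times) and cpo (221, 2.34 times), 5861 bp upstream of lncRNA:CR44057 (342, 2.73 times) and 20503 bp upstream of CG40191 (230, 2.21 times). The start sites nearest to the myd, hig and kek5 peaks were those of lncRNA:CR46039, Cyp4p2 and narya.

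The other 3 of these 10 peaks, ranked by the 8-letter spelling, lay at promoters and lacked TT after the core or held TGCATATT. The CG17896 peak, whose site is printed above, scored 409 pooled, 191 in replicate 1 and 215 in replicate 2 (0.89 times). Those at fray (242) and lncRNA:CR44810 (239) had ratios of 1.03 and 0.85. Ranked by GCATACT instead, the 10 strongest outside peaks shared 7 with these and added 3, which are named after their values were seen. They were an intergenic peak 6836 bp from lncRNA:CR44603 (232, 0.99 times) and peaks in introns of sd (214, 1.63 times) and tau (211, 2.30 times), so ratios near 1 were not limited to promoters.

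Of 13 genes of insulator proteins and their partners, 9 had a peak in the body or within 10 kb, against 36.5% of all genes. None of their 16 peaks held GCATACT, and at the overall share of 4.85% so few peaks could not show a difference. In 4 genes a peak lay at the gene's own start site. These were Cp190 (231 pooled, ratio 0.86), which encodes a cofactor of Su(Hw), BEAF-32 (75.9, 1.40), Chro (693, 0.999), which encodes the chromodomain protein Chromator, and Trl, which encodes the GAGA factor and whose strongest peak, in an intron, scored 592 with a ratio of 0.99. su(Hw) itself had a peak of 88.7 in its 5′ UTR, with 59.9 in replicate 1 and 39.7 in replicate 2. CG17612, the gene of the tagged protein, had 5 peaks nearby of at most 80.7. The strongest mod(mdg4) peak (175) lay 3 bp from the start of pre-mod(mdg4)-E, within the mod(mdg4) body. The strongest peaks of pita (134) and ZIPIC (167) lay at promoters of their neighbours wmd and CG7943, and HIPP1, Ibf1, Ibf2 and CTCF had none.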

How the data were processed

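Only peak lists were analysed, 8 in all from 2 biological replicates of 1 group. The conservative pooled list (2042 peaks on the arms), its ranked form (144329), the less strict list (2207) and the lists of each replicate were used. Scores are the signal values that the authors deposited, with no stated scale. The deposited ranked lists also hold the authors' −log10 of the IDR (irreproducible discovery rate), which was not used here to pick peaks. The thresholded lists are, however, the authors' own selection by IDR. For the conservative list the peaks compared were those of the 2 replicates. Neither aligner nor peak caller is given in the sources used here. No reads were counted in the lists, so depth is unknown.

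Genes came from Ensembl release 115 (BDGP 6.54), and sequence from the RefSeq Release 6 genome, the dm6 build named in the labels, with all peak ends checked to lie within the arms. A peak belonged to a gene when its summit lay in the body or within 10 kb. Each summit got 1 class, promoter taking precedence, then UTR or coding exon, then intron or non-coding exon, then intergenic. Introns are numbered in the canonical transcript. Words were searched on both strands, wholly within 50 bp of the summit. The sequences of some sites are not reported here. Replicate scores were the highest overlapping peak (at least 1 bp) in each replicate's ranked list. Ratios have no pseudocount. The members and lists were chosen with earlier results of these data known. The genes named were the 8, their neighbours under a peak, the genes nearest to or holding the 10 strongest outside peaks with the 8-letter core, and a list of insulator genes. No test was made, since 1 group of 2 replicates allows none and the genes were selected on score and motif. Python 3.11.15, NumPy 2.4.6 and SciPy 1.17.1 were used, and the search was tested on simulated data. Alternatives were other lists, score and distance limits, spellings, windows and scalings.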

Additional observations from a re-analysis of the deposited data

How the results depend on the processing

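With the main 8-letter spelling, 5 of 15 peaks held the core, with a median score of 477 against 152 for the rest. GCATACT, and after seeing the data GCATACTTT and GCATACT within 100 bp, each gave 9 peaks, medians of 356 and 102, and a median log2 ratio of the other peaks of 0.11 in place of 0.94. Leaving out a replicate gave medians of 155 to 324 with the core and 87.0 to 135 without it. The median without it was also 113 in the less strict list, 263 in the higher-scoring peaks, 273 in gene bodies alone, 188 within 5 kb and 127 within 20 kb, where the log2 ratio was 0.19. The share of other peaks with the core (4.05%) was 3.85% to 5.80% in single replicates, 10.7% for TGCATA, 5.58% within 100 bp, 6.41% in whole peaks, 3.11% for GCATACTTT and 5.82% for GCATACT within 100 bp. The cause of these shifts was not tested. Scaling each replicate by its median subtracts 0.18 from every log2 ratio, and so by construction took that of other peaks without the core from 0.13 to -0.0465. The remaining 73 values kept their direction within the spread. For core peaks outside the 8 genes this spread was wide, 0.62 in log2 ratio. Their median log2 ratio was 0.47 with the main spelling, 0.22 with TGCATA, 0.77 with GCATACT and 0.93 with GCATACTTT. No paired analysis was possible because there was 1 group. Unknown depth and 2 replicates limit every score and ratio.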

Other observations

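Peaks outside the 8 genes that were more than 2 times higher in replicate 1 were not all core peaks. Of the 98, 63 held neither GCATACT nor a 1-mismatch form of GCATACTTT with CA at positions 14 and 15. The 63 peaks had a median pooled score of 100.2, and 38 of them (60.3%) lay at promoters, with 11 in introns and 13 between genes. The 1-mismatch form alone, without GCATACT, was in 15 peaks with a median ratio of 1.76.

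Outside the 8 genes, none of the 2 peaks on chromosome 4 held the core. Its share was 7.01% on X (27 of 385) and between 2.73% and 4.86% on 2L, 2R, 3L and 3R. Many ranked peaks below the threshold had no replicate ratio and are left out of the values that follow. Among those with a ratio and a score of 20 or more, the 57 with GCATACTTT and CA had a median ratio of 1.82. The median was 1.26 for 508 with GCATACT but not the longer word, and 1.22 for 57228 without the core. Under a score of 20 these medians were 1.07 (n = 18), 1.14 (n = 271) and 1.15 (n = 29774). For conservative core peaks outside the 8 genes, the median ratio was 2.25 with GCATACT more than once in the window (n = 15). With it once the median was 1.61 (n = 74). GCATACTTT with CA was in 12 of the 15 and in 30 of the 74, and the median scores were 155 and 111. The part of copy number in the ratio was not tested.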
